A study of Mus musculus with 8 samples.

Results

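The genes described here are 48 cell cycle genes, chosen by name: every row of the deposited count table whose symbol is on a fixed list of 23 genes of DNA replication and the G1/S transition and 25 genes of mitosis and the G2/M transition. All 48 were in the table of 17823 genes, and all 48 passed the filter on low counts, which left 12610 genes for testing. They were measured by RNA sequencing of polyadenylated RNA from bone-marrow-derived macrophages of C57BL/6 mice, cultured over 7 days with 20 ng of M-CSF and exposed to LPS at 1 µg/ml. One group is Il19-tdT positive and the other Il19-tdT negative, that is, with and without signal of a tdTomato (tdT) reporter of the cytokine gene Il19, and both share the strain, the M-CSF and the LPS. There are 4 libraries per group, which the labels number 1 to 4 within either group and describe as biological replicates. The sources used here do not state how positive and negative cells were separated, the time in LPS, the age of the mice, or whether a number marks a shared mouse or culture. The p-values below therefore measure the spread between these libraries.

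M-CSF drives bone marrow precursors through repeated divisions while they become macrophages, and LPS makes dividing macrophages leave the cycle. Genes for DNA replication are switched on before S phase by E2F factors, and most genes for mitosis are switched on later, in G2, by complexes that bind CCAAT boxes and short elements called CHR. Replication proteins such as the clamp Pcna also act in DNA repair, so their transcripts are present in cells that do not divide, whereas transcripts of mitotic cyclins and spindle proteins are largely limited to cells near division.

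The libraries hold 49850537 to 58516454 counts over genes, and 3 counts are worth 0.0490 to 0.0696 CPM (counts scaled to a common library size with factors from the trimmed mean of M values, TMM). tdT-positive replicate 3 stands apart, with 12.3% of its counts on Rn45s, a ribosomal precursor transcript, against 0.302% to 0.734% in the other libraries. Il19 was at 185 ± 36.6 CPM in the tdT-positive and 12.0 ± 3.45 CPM in the tdT-negative libraries (SD, n = 4), as the labels require. Macrophage markers were abundant in all libraries, with 12004 to 21521 CPM over 8 genes, led by Lyz2 and Adgre1. The groups overlapped, and the lowest sum, 12004 CPM, was that of tdT-negative replicate 4. Levels below are CPM in the order of the numbers 1 to 4, every fold change is on the log2 scale, below 0 where the tdT-positive level was lower, and adjusted p-values are from edgeR's quasi-likelihood test with Benjamini-Hochberg adjustment over all genes tested.

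Cell cycle transcripts were at lower levels where the reporter was on, with larger fold changes for mitosis than for DNA replication. The fold change was below 0 for 22 of 23 G1/S genes and 25 of 25 G2/M genes, and the exception was E2f1. The median log2 fold change was -0.34 over the G1/S genes and -0.90 over the G2/M genes, beside -0.00 over all genes tested. The difference between the 2 classes was not tested. The G2/M median rests in part on tdT-negative replicate 4, which held the highest level of all 25 G2/M genes. Without it the median was -0.17, and that of the G1/S genes -0.20. That fit kept tdT-positive replicate 4, the highest of its group in the summed G2/M level (99.4 CPM). Without replicate 4 of both groups, the mean G2/M sum was 66.9 CPM in the tdT-negative and 52.6 CPM in the tdT-positive libraries. In bulk RNA, fewer dividing cells and less of these transcripts per cell cannot be told apart.

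In the fit with the group as its only term, 0 of the 48 genes passed an adjusted p under 0.05, where 3 of 12610 genes (0.0238%) did. The smallest adjusted p among them was 0.0826, for Rrm1. At an unadjusted p under 0.05 there were 6 of the 48, all lower and 5 of them G1/S genes, against 16.3% of all genes in either direction and 8.81% in the lower one. DESeq2 without the block called 2 of the 48, Rrm1 and Rrm2, a smaller share than among all genes in that fit. Limma voom, also without the block, called 0 of the 48. Same-numbered libraries deviated together from their group means, least clearly those of number 2. In the edgeR fit that takes the number as a block, 10 of the 48 fell and 0 rose. All genes gave 15.8% called with the block, 7.81% of them lower and 8.03% higher, each as a share of the genes tested.

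With the block, 3 of 23 G1/S genes fell (13%): Mcm6, Rrm1 and Rrm2. Of the 25 G2/M genes, 7 fell (28%): Ccna2, Birc5, Kif11, Prc1, Nusap1, Cdc20 and Top2a. Genes of low level were called lower more often in these data, and 24 of the 25 G2/M genes averaged under 10 CPM. Among all 4886 genes under that level 11.8% were called lower, against 7 of those 24 G2/M genes and 1 of 14 G1/S genes. Fewer of the 10 passed when both libraries of a number were left out. Without number 1, 2 of the 10 still passed (Rrm2 and Top2a), and without number 2 only Top2a did. Without number 3 none did, and without number 4 there were 5 (Mcm6, Rrm1, Rrm2, Nusap1 and Top2a). Calls over all genes also became fewer without number 1, 2 or 3, and whether the 10 were lost more often than other called genes was not tested. Without number 4, calls over all genes became more. All 10 stayed below 0 in each of these fits, and the median over the G2/M genes ranged from -0.59 to -1.07.

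**Figure D1:**
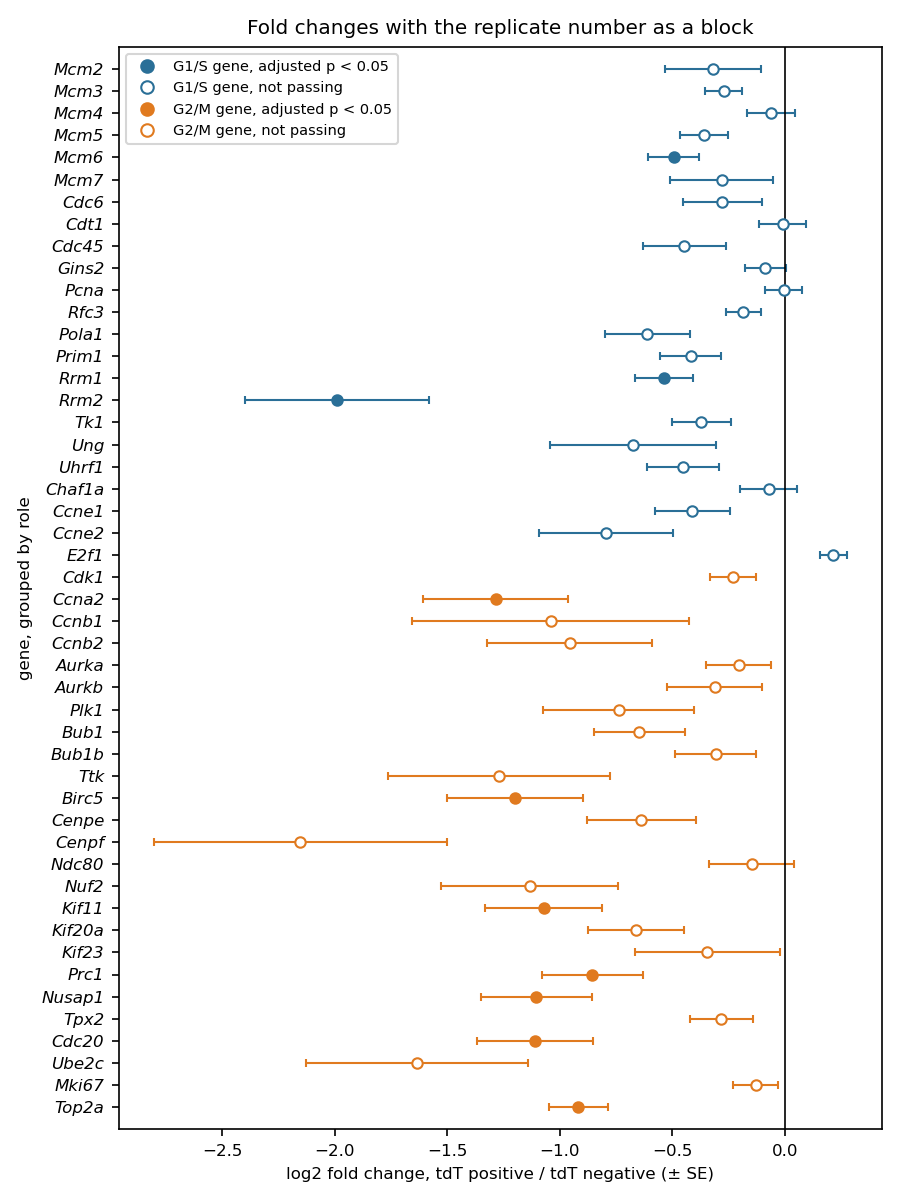
Log2 fold changes (tdT positive over tdT negative, x axis) of the 48 genes with the replicate number as a block, with bars of 1 standard error; filled points passed an adjusted p under 0.05. The 10 filled points all lie left of 0, and E2f1, at 0.22, is the only gene to the right.

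Among the DNA replication genes, 1 of the 6 subunits of the MCM helicase, which opens the double helix at origins, fell. Their fold changes with the block lay between -0.06 (Mcm4) and -0.49 (Mcm6). Mcm6 (chr1:128331575-128359705, GRCm38) had 62.0, 64.1, 43.5 and 61.6 CPM in the tdT-negative libraries and 48.3, 54.5, 32.1 and 31.9 CPM in the tdT-positive ones. It was lower in every number, and the groups overlapped only because the tdT-negative library of number 3 was low. Its fold change was -0.47 without the block (adjusted p = 0.297) and -0.49 with it (SE 0.11, adjusted p = 0.0306). Mcm3 and Mcm5 were also lower in 4 of 4 numbers, with adjusted p-values of 0.0650 and 0.0648 with the block. Mcm2 was lower in 3 of 4 numbers, and Mcm4 and Mcm7 in 2.

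Genes that load and fire the helicase did not pass. Cdt1, which brings the helicase to origins, was at 23.9 ± 1.8 CPM in the tdT-negative and 23.9 ± 2.68 CPM in the tdT-positive libraries. Cdc6, the other loader, was at 1.86 ± 0.499 and 1.51 ± 0.201 CPM. Cdc45 and Gins2, parts of the active helicase, had fold changes of -0.45 (adjusted p = 0.145) and -0.09 (adjusted p = 0.560) with the block.

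The replication clamp was at the same level in both groups, and the polymerase genes were lower in every number without passing. Pcna, the sliding clamp and the highest of the 48 per length of transcript (45.8 CPM per kilobase in each group), had 65.1, 58.4, 56.4 and 51.1 CPM in the tdT-negative and 64.7, 54.7, 49.4 and 61.8 CPM in the tdT-positive libraries. Its groups overlapped throughout and its fold change with the block was -0.00 (SE 0.08). Of the polymerase alpha genes, Pola1, the catalytic subunit, was at 4.68 ± 0.546 against 3.12 ± 0.864 CPM, and Prim1, the primase, at 2.81 ± 0.190 against 2.11 ± 0.328 CPM. Neither passed with the block (adjusted p = 0.0711 and 0.0773), although the Prim1 groups did not overlap. Rfc3, a subunit of the clamp loader, was lower in 4 of 4 numbers by a fold change of -0.18 (adjusted p = 0.157).

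Nucleotide supply held 2 of the 3 G1/S genes that fell. Rrm2 (chr12:24708254-24714146), the small subunit of ribonucleotide reductase whose level follows S phase, had 2.14, 3.86, 3.38 and 9.32 CPM in the tdT-negative and 0.882, 1.96, 0.232 and 1.67 CPM in the tdT-positive libraries. Every tdT-positive library was below every tdT-negative one, and the mean was 3.95 times higher in the tdT-negative group (4.68 ± 3.18 against 1.19 ± 0.782 CPM). The fold change was -1.97 without the block (adjusted p = 0.177) and -1.99 with it (SE 0.41, adjusted p = 0.0215). Leaving out number 2 or 3 gave adjusted p-values of 0.0571 and 0.0619.

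Rrm1 (chr7:102441695-102469771), the large subunit, had 26.8, 27.0, 26.0 and 33.3 CPM in the tdT-negative and 20.2, 23.2, 18.6 and 16.2 CPM in the tdT-positive libraries. Its groups did not overlap either, and its fold change with the block was -0.54 (SE 0.13, adjusted p = 0.0335). Tk1, thymidine kinase, was lower in every number but did not pass (fold change -0.37, adjusted p = 0.0978). Groups that did not overlap, with all tdT-positive libraries lower, were found for 3 G1/S genes (Prim1, Rrm1 and Rrm2) and 0 G2/M genes, against 5.92% of all genes; in the other direction it was 0 of the 48 genes, against 5.46%. For any gene whose groups do not overlap, an exact two-sided permutation test gives p = 0.0286, the smallest value that 70 splits allow. That value therefore follows from how the 3 genes were picked and adds no evidence for them. Rrm1, Rrm2 and Tk1 together summed to 32.3, 34.8, 32.8 and 45.8 CPM in the tdT-negative and 23.8, 28.7, 21.3 and 20.1 CPM in the tdT-positive libraries.

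The remaining G1/S genes did not pass. Uhrf1, which carries DNA methylation over to new strands, and Ung, which removes uracil from DNA, had fold changes of -0.45 and -0.68, and Chaf1a, a histone chaperone at replication forks, -0.07. Cyclin E genes, whose proteins drive entry into S phase, were at 2.94 ± 0.944 against 2.17 ± 0.461 CPM (Ccne1) and 2.78 ± 2.39 against 1.52 ± 0.938 CPM (Ccne2). E2f1, which encodes an E2F factor that activates G1/S genes, was the only one of the 48 that was higher in every number. It had 45.1, 46.9, 49.0 and 34.9 CPM in the tdT-negative and 50.9, 50.4, 61.5 and 41.8 CPM in the tdT-positive libraries. The groups overlapped, and the fold change of 0.22 missed the threshold with the block (SE 0.06, adjusted p = 0.0556) and passed by DESeq2 with the block (adjusted p = 0.0336).

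**Figure D2:**
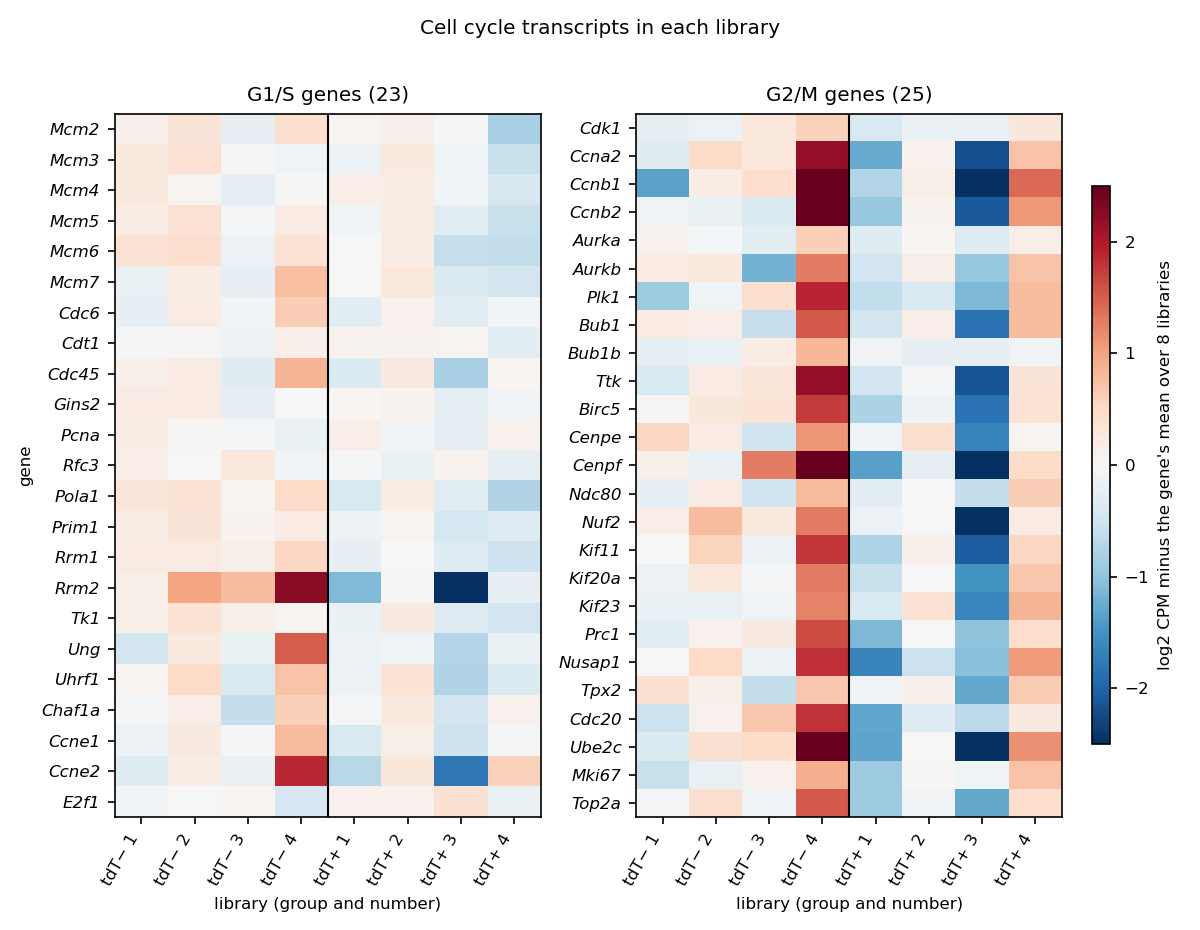
Log2 CPM of each gene (rows) in each library (columns; tdT− negative, tdT+ positive), minus the gene's mean over the 8 libraries, for 23 G1/S and 25 G2/M genes; the colour scale ends at 2.5 in both directions and larger differences take the end colour. The column of tdT-negative replicate 4 is the highest for all 25 G2/M genes and 13 G1/S genes, and that of tdT-positive replicate 3 the lowest for 18 G2/M and 10 G1/S genes. That of tdT-positive replicate 4 is the lowest for 11 G1/S genes and 0 G2/M genes.

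Mitotic genes were present at low levels, and the 25 together made up 0.00897% of the scaled counts in the tdT-negative and 0.00643% in the tdT-positive libraries. Of the genes that turn the mitotic kinase on, Ccna2 (chr3:36564865-36573038), cyclin A2, had 0.968, 1.70, 1.44 and 5.62 CPM in the tdT-negative and 0.479, 1.29, 0.232 and 1.99 CPM in the tdT-positive libraries. It was lower in every number, while the groups overlapped, with tdT-positive replicates 2 and 4 above tdT-negative replicate 1. Its fold change with the block was -1.29 (SE 0.32, adjusted p = 0.0384). Cyclin B genes did not pass: Ccnb1 had 0.0744 to 1.98 CPM in the tdT-negative and 0 to 0.719 CPM in the tdT-positive libraries, and the 0 counts in tdT-positive replicate 3 allow up to 0.0696 CPM. Ccnb2 was at 1.10 ± 1.31 against 0.505 ± 0.456 CPM. Cdk1, the kinase itself, was at 8.13 ± 2.18 and 6.86 ± 1.43 CPM (fold change -0.23, adjusted p = 0.165).

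Among the mitotic kinases and checkpoint genes, 1 of 7 fell. Birc5 (chr11:117849237-117855743), survivin, a subunit of the chromosomal passenger complex, had 0.949, 1.14, 1.19 and 3.18 CPM in the tdT-negative and 0.518, 0.843, 0.232 and 1.19 CPM in the tdT-positive libraries. Numbers 1 to 3 of the tdT-positive group lay below every tdT-negative library, and number 4 overlapped with them. Its fold change with the block was -1.20 (SE 0.30, adjusted p = 0.0384). The kinases of the same complex and of the centrosome, Aurkb and Aurka, had fold changes of -0.31 and -0.20, and Plk1, -0.74. Bub1, Bub1b and Ttk, of the spindle checkpoint, had -0.65, -0.31 and -1.27. None of these 6 passed.

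Kinetochore genes, which attach chromosomes to the spindle, did not pass. Cenpf had the lowest fold change of all 48 (-2.15, SE 0.65, adjusted p = 0.0656), at 0.279, 0.218, 0.666 and 2.18 CPM in the tdT-negative and 0.0767, 0.206, 0 and 0.359 CPM in the tdT-positive libraries. The 0 counts again allow up to 0.0696 CPM, so the size of that fold change is poorly determined. Nuf2 and Ndc80, partners in 1 complex, had fold changes of -1.13 and -0.15, and Cenpe, a kinetochore motor, -0.64.

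Spindle and cytokinesis genes held 3 of the 7 G2/M genes that fell. Kif11 (chr19:37376382-37421863), the motor that pushes spindle poles apart, had 1.28, 1.90, 1.15 and 4.39 CPM in the tdT-negative and 0.729, 1.39, 0.278 and 1.83 CPM in the tdT-positive libraries (fold change -1.07, SE 0.26, adjusted p = 0.0346). Prc1 (chr7:80294445-80316259), which bundles the microtubules of the central spindle, was at 2.59 ± 1.77 against 1.38 ± 0.733 CPM, and Nusap1 (chr2:119618298-119650165), a spindle protein that binds microtubules, at 0.986 ± 0.739 against 0.499 ± 0.482 CPM. Both were lower in every number and fell by 0.86 (SE 0.23, adjusted p = 0.0438) and 1.10 (SE 0.25, adjusted p = 0.0278) on the log2 scale. The motors Kif20a and Kif23 and the spindle factor Tpx2 had fold changes of -0.66, -0.35 and -0.28 and did not pass. Of the mitotic exit genes, Cdc20 (chr4:118432901-118437343), which activates the anaphase-promoting complex, had 0.484, 0.772, 1.17 and 2.60 CPM in the tdT-negative and 0.268, 0.568, 0.441 and 0.849 CPM in the tdT-positive libraries (fold change -1.11, SE 0.26, adjusted p = 0.0314). Ube2c, the ubiquitin-conjugating enzyme of that complex, had a larger fold change of -1.63 with a larger error (SE 0.49, adjusted p = 0.0649). It had 1 count in tdT-positive replicate 3 (0.0232 CPM), so the size of that fold change is poorly determined.

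The G2/M genes of chromosome structure, Top2a and Mki67, had unlike fold changes. Top2a (chr11:98992947-99024199), the topoisomerase that untangles replicated chromosomes, had 7.09, 9.57, 6.81 and 20.9 CPM in the tdT-negative and 3.89, 6.76, 2.94 and 9.64 CPM in the tdT-positive libraries. Its mean was 1.91 times higher in the tdT-negative group, it was lower in every number, and its fold change of -0.92 with the block (SE 0.13) had the smallest adjusted p of the 48 (0.00976). Without number 3 that p was 0.0512. Mki67 (chr7:135689784-135716450), whose protein coats mitotic chromosomes and is the common stain for dividing cells, had 13.9, 18, 22.1 and 38.8 CPM in the tdT-negative and 11, 21, 19.2 and 33.7 CPM in the tdT-positive libraries. The groups overlapped, number 2 went the other way, and the fold change was -0.13 (SE 0.10, adjusted p = 0.406). The difference between the fold changes of these genes was not tested.

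Gene counts of 12 of the 48 are uncertain because an exon overlaps a gene on the opposite strand and no source used here gives the strand setting of the counting. Among those called, these are Ccna2 (beside Exosc9), Prc1 (Rccd1), Nusap1 (Oip5) and Cdc20 (Elovl1). The others are Mcm7, Cdc45, Gins2, Tk1, Chaf1a, Ccne2, Kif20a and Ube2c.

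As a description of both classes, their promoters were searched for the letters that E2F factors and the cell cycle complexes bind. A part of these letters in the fold changes was not tested. RefSeq promoter windows (GRCm38.p6, 300 bases, 250 before to 50 after the gene's start) matched 41 of the 48 genes, 20 of G1/S and 21 of G2/M. A CCAAT box (CCAAT) was found on either strand in 70.0% of the G1/S and 81.0% of the G2/M windows, against 37.9% of the windows of 27025 genes. A CHR (TTTGAA or TTCGAA) was found in 20.0% and 76.2%, against 19.4%. An E2F core (TTCCCGC or TTCGCGC or TTGCCGC or TTGGCGC) was found in 65.0% and 14.3%, against 9.69%. CCAAT and CHR letters stood together in 15 of 21 G2/M windows (71.4%) and 4 of 20 G1/S windows (20.0%), against 7.70% of all genes. Of the 10 genes that fell, Birc5 and Nusap1 have none of these letters in the window, and Ccna2 had no entry. A match is a description of the letters and no evidence of binding. The stretches just upstream of the start of 3 G2/M and 3 G1/S genes that fell are shown 5′ to 3′ on the gene's strand, with matches to CCAAT, CHR and E2F letters on either strand in capitals, to show the difference between the classes. CCAAT reads ATTGG on the other strand and TTTGAA reads TTCAAA.
Top2a (chr11:99024200-99024339, minus strand): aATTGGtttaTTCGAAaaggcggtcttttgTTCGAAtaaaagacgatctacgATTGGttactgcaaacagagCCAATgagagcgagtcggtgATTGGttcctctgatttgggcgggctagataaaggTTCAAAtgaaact
Cdc20 (chr4:118437344-118437493, minus strand): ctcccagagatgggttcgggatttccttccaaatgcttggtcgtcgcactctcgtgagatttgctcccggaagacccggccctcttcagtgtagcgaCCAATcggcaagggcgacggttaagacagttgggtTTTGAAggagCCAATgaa
Kif11 (chr19:37376232-37376381, plus strand): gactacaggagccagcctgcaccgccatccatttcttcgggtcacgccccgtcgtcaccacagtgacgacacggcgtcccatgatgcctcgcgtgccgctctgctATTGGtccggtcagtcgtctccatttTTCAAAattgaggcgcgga
Mcm6 (chr1:128359706-128359855, minus strand): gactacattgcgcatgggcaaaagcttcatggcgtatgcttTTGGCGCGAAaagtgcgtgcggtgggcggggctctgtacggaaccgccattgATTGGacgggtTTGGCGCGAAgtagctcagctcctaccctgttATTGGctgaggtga
Rrm1 (chr7:102441545-102441694, plus strand): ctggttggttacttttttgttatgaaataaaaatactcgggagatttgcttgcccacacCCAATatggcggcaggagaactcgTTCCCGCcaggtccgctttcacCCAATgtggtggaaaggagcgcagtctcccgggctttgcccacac
Rrm2 (chr12:24708104-24708253, plus strand): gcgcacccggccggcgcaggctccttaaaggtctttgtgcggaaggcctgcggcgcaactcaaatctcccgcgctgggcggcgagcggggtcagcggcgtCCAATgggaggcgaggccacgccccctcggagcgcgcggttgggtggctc
The stretches of Top2a, Cdc20 and Kif11 hold both CCAAT and CHR letters and no E2F core. Those of Mcm6 and Rrm1 hold CCAAT and E2F letters and no CHR, and each capital run of 10 bases in Mcm6 is 2 overlapping E2F matches, 1 on each strand. The stretch of Rrm2 holds only a CCAAT box, and its E2F match lies elsewhere in the window.

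The differences were also taken within each replicate number, with no test. Over the G1/S genes, the median log2 ratio of tdT positive to tdT negative (of CPM plus 0.05) was -0.22, -0.11, -0.25 and -0.77 in numbers 1 to 4. Over the G2/M genes it was -0.60, -0.10, -1.31 and -1.09. Over all genes tested it was -0.02, 0.00, -0.01 and 0.06. Both medians were nearest to 0 in number 2. The G2/M median was lowest in numbers 3 and 4, and the G1/S median in number 4. Number 3 contains tdT-positive replicate 3, the library with 12.3% of its counts on Rn45s and 0.949% on Lars2, which was lowest for 18 of 25 G2/M genes; the part of this in the result was not tested. With number 3 left out, the G2/M median with the block was -0.59, against -0.86 with all numbers.

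Genes past a 2-fold difference were counted in the same way. Of 25 G2/M genes, 2, 0, 17 and 14 were more than 2-fold lower in numbers 1 to 4 (8%, 0%, 68% and 56%), against 3.56%, 4.13%, 5.76% and 8.22% of all genes. Of 23 G1/S genes it was 1, 0, 2 and 8. Lower in 4 of 4 numbers were 13 G1/S genes (56.5%) and 16 G2/M genes (64.0%), against 19.6% of all genes. Since genes of a class share their libraries, these counts describe the libraries and are not independent observations.

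**Figure D3:**
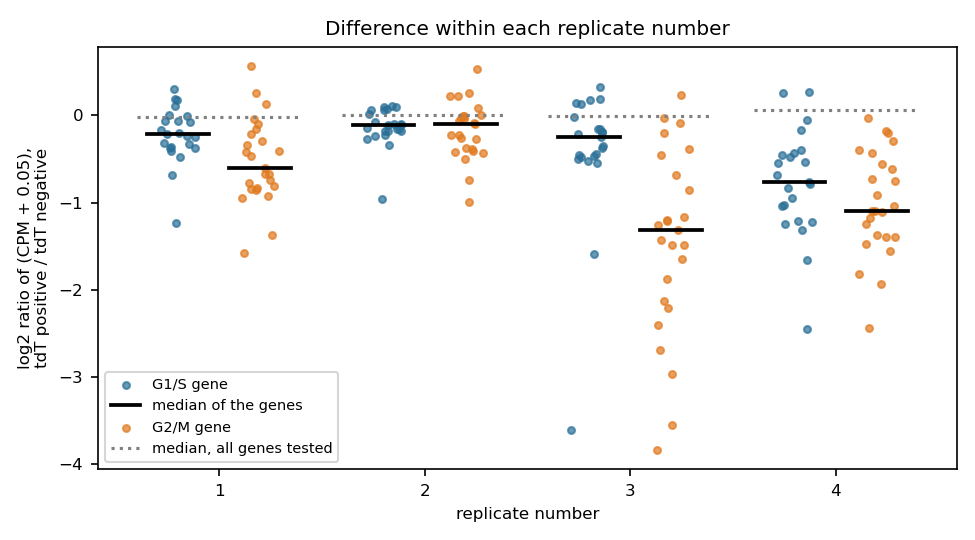
Log2 ratio of CPM plus 0.05, tdT positive over tdT negative, of each gene (points) within each replicate number (x axis), with the median of each class (bar) and of all genes tested (dotted line). G2/M genes reach medians of -1.31 and -1.09 in numbers 3 and 4 and lie at -0.10 in number 2, and the G1/S median is lowest in number 4, at -0.77.

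Summed over genes, where the genes with most counts weigh most, the G1/S difference was small. The G1/S sum was 352, 363, 308 and 359 CPM in the tdT-negative and 322, 340, 285 and 261 CPM in the tdT-positive libraries. The groups overlapped, and the tdT-negative library was 1.09, 1.07, 1.08 and 1.37 times as high. The G2/M sum was 61.6, 70.8, 68.3 and 158 CPM in the tdT-negative and 45.3, 68.7, 43.8 and 99.4 CPM in the tdT-positive libraries, or 1.36, 1.03, 1.56 and 1.59 times as high. tdT-negative replicate 4 had the highest G2/M sum, and tdT-positive replicate 4 was above the tdT-negative libraries of the other numbers. Mki67 alone made up much of the G2/M sum, and without it the ratios were 1.39, 1.11, 1.88 and 1.82.

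**Figure D4:**
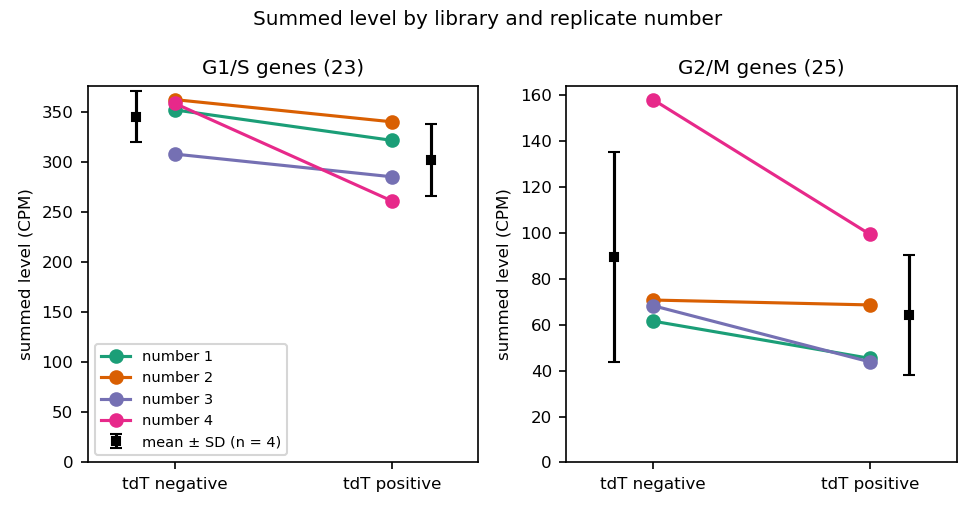
Summed CPM of 23 G1/S genes (left) and 25 G2/M genes (right) in each library, with a line joining libraries of the same number; squares with bars are the mean ± SD of 4 libraries. All 4 lines go down from tdT negative to tdT positive in both panels, least in number 2 for G2/M genes (70.8 to 68.7 CPM), and tdT-negative replicate 4 lies alone at 158 CPM.

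How few cells could carry these transcripts was not measured, and arithmetic only gives the level that a share of the cells would need. If every cell held the same amount of RNA and 1% of the cells held all G2/M transcripts, those cells would need 8972 CPM of them in the tdT-negative and 6430 CPM in the tdT-positive libraries, and with 5% of the cells 1794 and 1286 CPM. For Mki67 alone, 1% of the cells would need 2321 CPM, a level that 34 genes reach on average in the tdT-negative libraries and close to the 1945 CPM of Csf1r, the M-CSF receptor of all macrophages. Top2a would need 1109 CPM, a level that 95 genes reach, and Rrm2 468 CPM, which 315 genes reach. With 10% of the cells the same genes would need 232, 111 and 46.8 CPM. Without tdT-negative replicate 4, the tdT-negative levels at 1% of the cells would be 6691 CPM for the G2/M sum, 1802 CPM for Mki67, 782 CPM for Top2a and 313 CPM for Rrm2. Other single genes in these libraries reach each of the levels named for Mki67, Top2a and Rrm2. The 8972 CPM of the G2/M sum, which 3 single genes reach, would be shared by 25 genes and is not a level of any 1 of them. The level that these transcripts can reach in a dividing cell was not measured. The arithmetic therefore cannot say whether 1% of the cells could hold them all.

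The difference between the groups can be put in the same terms. If dividing cells had the same level in both groups and made up 1% of the tdT-negative cells, the tdT-positive share would be 0.717% from the G2/M sum, 0.524% from Top2a, 0.253% from Rrm2 and 0.914% from Mki67. These shares rest on means that tdT-negative replicate 4 raises. Without that library alone they would be 0.961%, 0.743%, 0.379% and 1.18%, the share from Mki67 then being above that of the tdT-negative cells. Without replicate 4 of both groups they would be 0.786%, 0.580%, 0.328% and 0.948%, all below 1%. Whether the shares differ beyond the spread between libraries was not tested. For the G1/S sum, shared by 23 genes, 1% of the tdT-negative cells would need 34542 CPM, a level that 1 single gene reaches. With 10% of the cells it would be 3454 CPM.

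Markers of other cell types were also lower in the tdT-positive libraries, and their part in the cell cycle result was not tested. Counts of markers that fell stand beside 7.81% of all genes and 11.8% of genes under 10 CPM called lower with the block. Stromal markers (12 genes, 10 of 11 tested fell with the block) summed to 350, 734, 733 and 3098 CPM in the tdT-negative and 118, 214, 83.5 and 167 CPM in the tdT-positive libraries, led by Col1a1 with 857 CPM in tdT-negative replicate 4. Osteoclast markers (4 of 7 fell), led by Acp5, summed to 80.2, 158, 113 and 1398 CPM and to 77.1, 73.0, 59.98 and 114 CPM. tdT-negative replicate 4, highest in all 25 G2/M genes, was thus also highest in both of these lists.

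Markers of neutrophil precursors (9 genes, 4 of 6 tested fell, against 7.81% of all genes) had another pattern. They summed to 140, 276, 226 and 15 CPM in the tdT-negative and 3.47, 4.51, 4.43 and 7.78 CPM in the tdT-positive libraries. They were led by S100a9 in the tdT-negative libraries, and Prtn3, Elane and Ctsg were at 0 in all tdT-positive libraries. Monocyte markers (4 of 7 fell), led by S100a4, summed to 213 to 395 CPM against 98.0 to 173 CPM. In numbers 1 to 4 the tdT-negative library was 1.36, 1.03, 1.56 and 1.59 times as high in the G2/M sum, 2.97, 3.42, 8.78 and 18.6 times in stromal markers and 40.3, 61.2, 50.9 and 1.93 times in neutrophil-precursor markers. The G2/M ratio was lowest in number 2, which had the highest neutrophil-precursor ratio. It was highest in number 4, which had the highest stromal ratio, but without Mki67 it was highest in number 3 (1.88 against 1.82 in number 4). Whether these ratios are related over the 4 numbers was not tested.

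Progenitor markers, genes of undifferentiated marrow cells, were low in both groups. Their sum over 6 genes was 2.36 to 7.84 CPM in the tdT-negative and 1.13 to 3.15 CPM in the tdT-positive libraries. Sox4 fell (1.77 against 0.263 CPM), Gata2 was at 1.69 against 1.63 CPM, and Kit was at 0.282 ± 0.113 and 0.102 ± 0.0849 CPM. Dendritic cell markers, led by Fscn1 in the tdT-negative libraries, summed to 33.8 to 47.9 against 18.1 to 21.9 CPM. B cell markers, led by Ebf1 in the tdT-negative libraries, reached 1.4 to 2.28 against 0.533 to 0.882 CPM, and mast cell, erythroid and T and NK cell markers stayed at or below 5.17, 0.839 and 0.101 CPM in every library.

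**Figure D5:**
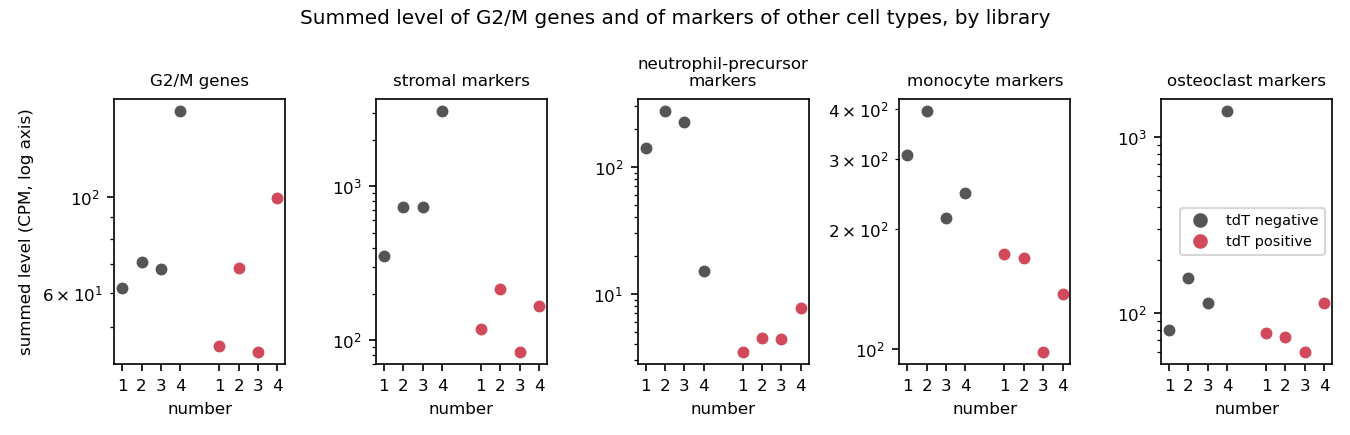
Summed CPM (log axis, its range set per panel) of the 25 G2/M genes and of marker lists of stromal cells, neutrophil precursors, monocytes and osteoclasts in each library, by replicate number. tdT-negative replicate 4 is highest for the G2/M genes (158 CPM), stromal markers (3098 CPM) and osteoclast markers (1398 CPM) and lowest of the tdT-negative libraries for neutrophil-precursor markers (15 CPM).

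Further genes of the cycle, taken from lists drawn up beside the 48, gave smaller medians. Of 28 other G1/S genes, 2 fell with the block (7.14%) and 0 rose, against 7.81% and 8.03% of all genes, so the share that fell was no higher than the background. Their median log2 fold change was -0.26, beside 0.01 over all genes. The 2 that fell were Dut and Orc6. Dut, which removes dUTP, was at 2.30 ± 1.39 against 0.762 ± 0.248 CPM (fold change -1.50, SE 0.25, adjusted p = 0.0126), and Orc6, of the origin recognition complex, at 8.67 ± 0.501 against 6.67 ± 0.494 CPM (fold change -0.38, SE 0.08, adjusted p = 0.0237). The groups of both did not overlap. Lig1, the ligase that joins new strands, and Clspn, of the replication checkpoint, did not pass (adjusted p = 0.0589 and 0.0600).

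Of 37 other G2/M genes tested, 4 fell (10.8%) and 1 rose, with a median of -0.38. That share lies between the 7.81% of all genes and the 11.8% of genes under 10 CPM that were called lower, and is near the background. Kif18b, a kinesin of the spindle, Aspm, of the spindle poles, and Anln, a scaffold of the contractile ring, fell by 1.62, 2.32 and 1.64 on the log2 scale (adjusted p = 0.0287, 0.0292 and 0.0366), all from under 2 CPM. The fourth was Bub3, a checkpoint gene at 80.3 ± 12.3 against 69.1 ± 9.43 CPM, named after its values were seen. Incenp, the scaffold of the chromosomal passenger complex that also holds Birc5, rose in every number, from 41.5 ± 2.56 to 57.4 ± 7.13 CPM with no overlap (fold change 0.46, SE 0.09, adjusted p = 0.0208). Foxm1, the factor that activates many G2/M genes, was at 1.99 ± 1.54 against 1.17 ± 0.596 CPM and did not pass (adjusted p = 0.103).

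Of 24 genes that restrain or regulate the cycle, 2 rose and 0 fell with the block, against 8.03% and 7.81% of all genes, 11 were below 0, and the median was 0.05. Those that rose were Btg1, an antiproliferative gene, at 121 ± 40.2 against 154 ± 54.0 CPM (fold change 0.34, SE 0.05, adjusted p = 0.0122), and Lin54, the CHR-binding subunit of the complexes named above, at 17.1 ± 3.73 against 21.7 ± 3.67 CPM (fold change 0.36, SE 0.09, adjusted p = 0.0337). E2f4, a repressing E2F, was higher in every number but did not pass (adjusted p = 0.0823), nor did E2f7 (fold change -1.22, adjusted p = 0.135). Cdkn1a, the p21 inhibitor of cyclin-dependent kinases, had 384, 440, 205 and 438 CPM in the tdT-negative and 328, 426, 199 and 644 CPM in the tdT-positive libraries and was lower in 3 of 4 numbers (adjusted p = 0.774).

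Of 15 genes of G1 entry and growth input, 1 fell (Ccnd2), 1 rose (Mxd1) and the median was 0.09, beside 7.81% lower and 8.03% higher among all genes, so the list as a whole was at the background. Ccnd2, which links growth signals to G1 kinases, had 37.5, 34.1, 17.5 and 37.7 CPM in the tdT-negative and 17.8, 12.6, 9.60 and 8.53 CPM in the tdT-positive libraries. It was lower in every number by a fold change of -1.38 (SE 0.19, adjusted p = 0.00971 with the block and 0.0626 without), and a single tdT-positive value, 17.8 CPM, exceeded the lowest tdT-negative one. Mxd1, an antagonist of Myc, rose from 108 ± 53.3 to 140 ± 50.7 CPM (fold change 0.43, adjusted p = 0.0185).

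The other genes of that list did not pass. Ets2, a growth-responsive factor, was at 178 ± 25.4 against 246 ± 26.6 CPM (adjusted p = 0.0522), and Cdk4, the partner of D cyclins, at 53.9 ± 9.87 against 45.0 ± 6.47 CPM (adjusted p = 0.0680). Ccnd1 had a fold change of -0.42 (adjusted p = 0.246). Myc was at 33.5 CPM in tdT-negative replicate 4 and between 6.94 and 13.2 CPM in the other 7 libraries (adjusted p = 0.177). Csf1r, the receptor through which M-CSF acts, was at 1945 ± 326 and 2077 ± 418 CPM (fold change 0.09, adjusted p = 0.456).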

How the data were processed

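Whole-number counts per gene for 17823 genes were deposited by the authors in 1 table with Entrez identifiers, symbols and gene lengths. Alignment with STAR to mm10 is listed in the submitters' processing notes. No source used here states the counting tool, annotation or strand setting. Per the labels, libraries were made with a stranded mRNA kit, and groups and replicate numbers come from the sample titles. Counts were filtered (edgeR 4.0.16, minimum count 10, minimum total 15), scaled by TMM and compared with the quasi-likelihood test on all 12610 genes, with the group as the only term and an adjusted p under 0.05 as the threshold. Libraries of the same number had correlated deviations from their group means (r = 0.63, 0.28, 0.62 and 0.56 for numbers 1 to 4). The highest r of each number with a different number was 0.15, 0.23, -0.04 and 0.23, so number 2 was little above a mismatched pair. Fold changes and adjusted p-values of single genes are given with the number as a block unless stated otherwise. No library repeated another (chi-square per degree of freedom 54.0 to 759 within groups).

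CPM and CPM per kilobase were computed from the counts. Alternatives used DESeq2 1.42.0, limma 3.58.1 voom, other scalings and filters, and left out libraries. The script was tested on simulated counts. All 48 genes are named, with up to 4 genes of smallest p per further list and Cdkn1a, Ccnd1, Myc, Foxm1 and Csf1r. The genes and lists were chosen with earlier results of these data known, and the text draws no independent support from them. Positions are from GRCm38 annotation and promoters from RefSeq on GRCm38.p6. The 8 genes without a symbol were kept under their Entrez identifiers.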

Additional observations from a re-analysis of the deposited data

Results flagged for a closer look

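In each group of 4 libraries, a library is listed here if its gap to the nearest other one, on the log2 scale, took up more of the group's range than Dixon's 95% critical value for 4 samples allows. Of 96 groups (48 genes in 2 groups), 8 met this, where chance alone gives about 4.8. In tdT-negative replicate 4, 3 genes stood above the rest: Ccnb2 at 3.06 CPM (next 0.484 CPM), Kif23 at 2.43 CPM (next 0.936 CPM) and Rrm1 at 33.3 CPM (next 27.0 CPM). In tdT-negative replicate 3, Mcm6 stood below the others at 43.5 CPM (next 61.6 CPM). In tdT-positive replicate 4, Mcm2 was low at 5.72 CPM (next 9.88 CPM) and Cdt1 at 19.8 CPM (next 25 CPM). In tdT-positive replicate 3, Ung was low at 0.255 CPM (next 0.392 CPM) and Nuf2 at 0.0696 CPM (next 0.537 CPM), which is the level of 3 counts in that library.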

How the results depend on the processing

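When the replicate block entered the fit, the numbers of genes called, of G1/S members called and of G2/M members called were 1998, 3 and 7, against 3, 0 and 0 without it; the cause was not tested. In the same order, the fits with the block gave 1990, 3 and 7 with DESeq2 size factors, 1420, 3 and 4 with library totals (995 genes lower and 425 higher, or 29.9% higher against 50.7%), 2338, 3 and 9 with no filter, and 1644, 3 and 5 with a filter of 1 CPM in 4 libraries (22 and 14 members tested). They gave 2504, 6 (5 lower, 1 higher) and 10 with DESeq2's Wald test and 2144, 3 and 9 with limma voom. Chosen after seeing the data, a threshold of 0.1 gave 3182, 9 and 12, and removing Rn45s and Lars2 gave 2005, 3 and 7. Of the 10 members called with the block, 7 passed with library totals, 8 with the stricter filter and 10 with each other scaling, filter, test or threshold named so far. When a pair of same-numbered libraries was dropped from the blocked fit, the counts were 1023, 1 and 1 without number 1, 347, 0 and 1 without number 2, 355, 0 and 0 without number 3, and 2535, 3 and 2 without number 4. Without the block, 216 were called with no filter, 921 with DESeq2's Wald test (2 G1/S and 0 G2/M members), 2 to 456 with single libraries left out (456 without tdT-negative replicate 1, 225 without tdT-negative replicate 4), and 0 members in these last fits. Over them the G2/M members, median log2 fold change, ranged from -0.17 (without tdT-negative replicate 4) to -1.28, and that of the G1/S members from -0.20 to -0.47.

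Of 1272 values for single genes, 30 changed sign, in 12 genes. Over the unblocked fits without 1 library, the log2 fold change ranged from -0.13 to 0.056 for Mcm4, -0.044 to 0.073 for Cdt1, -0.059 to 0.069 for Pcna, -0.28 to 0.11 for Chaf1a, -2.24 to 0.30 for Ccnb1, -1.87 to 0.20 for Ccnb2, -0.76 to 0.12 for Aurkb, -0.45 to 0.15 for Ndc80, -0.71 to 0.22 for Kif23, -0.52 to 0.048 for Tpx2 and -0.45 to 0.23 for Mki67. The highest value came without tdT-negative replicate 4 for Chaf1a, Ccnb1, Ccnb2, Aurkb, Ndc80, Kif23 and Mki67, and without tdT-positive replicate 3 for Pcna and Tpx2. With no filter, Cdt1 and Pcna were at 0.0069 and 0.0065, and with the block as well at 0.0015 and 0.0055. In the blocked fits, Pcna was at 0.0030, 0.016 and 0.050 without numbers 1, 2 and 3, and without number 4 Mcm4 was at 0.075, Mcm7 at 0.050, Cdt1 at 0.14 and Chaf1a at 0.081. At these depths, 3 counts in a library, 0.0490 to 0.0696 CPM, limit what can be said of Ccnb1, Ttk, Cenpf, Nuf2 and Ube2c.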
